A study of Mus musculus with 10 samples.

Results

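The genes described here are 8 parts and partners of the inflammasome, the cytosolic platform on which macrophages activate inflammatory caspases. They are the sensors Nlrp3, Nlrc4, Nlrp1b and Aim2, the adaptor Pycard, and the caspases Casp1, Casp4 and Casp8. They were taken by symbol from the deposited table of raw read counts, which holds 23284 genes, and all 8 were found. All 8 also passed the filter on low counts, which left 12918 genes for testing. The rule uses names and no measured value.

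The cells were macrophages grown from the bone marrow of C57BL/6J mice over 6 days with M-CSF (macrophage colony-stimulating factor). Kdo2-lipid A, an active part of bacterial lipopolysaccharide and a ligand of the receptor TLR4, was given at a low dose of 0.03 nM or a high dose of 10 nM, and RNA was taken 1 h or 2 h later. The untreated cells carry a time of 0 h, and no untreated group at 1 h or 2 h was analysed here, so time in culture and treatment cannot be told apart in comparisons with them. Each of the 5 groups had 2 libraries of polyadenylated RNA, 1 from each of 2 experiments numbered in the labels. The labels do not say whether the experiments used separate mice, so p-values measure the spread between these libraries, which may be technical. The 4 comparisons with untreated cells share the same 2 control libraries.

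As background, an inflammasome is built when a cytosolic sensor meets its trigger and binds the adaptor ASC, the product of Pycard, or caspase-1 directly. Caspase-1 then cleaves the precursors of the cytokines IL-1β and IL-18 and the pore former gasdermin D. In macrophages, ligands of Toll-like receptors are known to prime this pathway by raising transcripts of some of its parts, which on its own does not assemble the platform. The values here are transcript levels and say nothing of protein, assembly or caspase activity.

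Levels are given as CPM, the usual unit of read counts relative to library size, here after scaling by TMM (trimmed mean of M values), and, where genes are set against each other, as RPKM, the same value per kilobase of exon. A gene was called where the Benjamini-Hochberg adjusted p of edgeR's quasi-likelihood test was below 0.05 over all 12918 genes. Fold changes are given on the log2 scale with their standard errors (SE). Library totals ran from 33179599 to 42167096 counts, and the 8 genes together took 0.0497% to 0.266% of them. All 12 macrophage markers looked for were counted in every library, at a summed 25482 to 34452 CPM. Marker sums of other cell types were far lower: 46.2 to 116 CPM for stromal and endothelial cells, 19.5 to 39.0 CPM for neutrophils, 10.1 to 21.5 CPM for dendritic cells and at most 0.582 CPM for T and NK cells. The neutrophil sum was 31.7 to 39.0 CPM at 10 nM for 2 h against 19.5 to 26.9 CPM in untreated cells, and the dendritic sum 21.5 CPM in both libraries against 10.1 and 13.6 CPM. The stromal and endothelial sum was 66.0 and 116 CPM at 10 nM for 2 h against 46.2 and 81.0 CPM in untreated cells. It was higher in experiment 2 in all 5 groups, where the median difference between experiments over the 10 of these markers that were tested was 0.91 to 0.94 on the log2 scale. The part of these cells in the results below was not tested. In RNA from whole cultures, more cells of a type and more RNA per cell cannot be told apart.

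Promoter sequences were looked at first for what the 8 genes share there. RefSeq (build GRCm38.p6) listed 11 start sites for the 8 genes, and the 250 bases upstream of each were searched on both strands. The consensus of NF-κB binding sites, searched by that name, was found upstream of Casp4 and of 1 of the 2 start sites of Nlrp3. That is 2 of 8 genes and 3 of 11 windows, 2 of them overlapping windows of Casp4. The consensus was found in 7.25% of the 32851 mouse promoter windows of the same length. These 2 genes are shown because, as given below, their transcripts rose most, together with Casp1, the neighbour of Casp4 on chromosome 9, whose window held no match. Capitals mark the matches, and each sequence runs 5′ to 3′ on the gene's own strand and ends 1 base before the start site.

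Nlrp3 (chr11:59541319-59541568, + strand, GRCm38.p6): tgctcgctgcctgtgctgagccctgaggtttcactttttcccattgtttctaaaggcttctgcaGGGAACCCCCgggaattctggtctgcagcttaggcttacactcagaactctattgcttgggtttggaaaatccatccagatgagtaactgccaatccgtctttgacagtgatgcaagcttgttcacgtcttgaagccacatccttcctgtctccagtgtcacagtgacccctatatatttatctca

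Casp4 (chr9:5308599-5308848, + strand, GRCm38.p6): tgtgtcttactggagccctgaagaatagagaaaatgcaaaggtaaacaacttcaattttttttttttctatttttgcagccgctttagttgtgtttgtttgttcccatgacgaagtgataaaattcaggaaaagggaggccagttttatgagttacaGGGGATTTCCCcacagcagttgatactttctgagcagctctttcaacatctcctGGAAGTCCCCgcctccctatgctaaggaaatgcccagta

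Casp1 (chr9:5298267-5298516, + strand, GRCm38.p6): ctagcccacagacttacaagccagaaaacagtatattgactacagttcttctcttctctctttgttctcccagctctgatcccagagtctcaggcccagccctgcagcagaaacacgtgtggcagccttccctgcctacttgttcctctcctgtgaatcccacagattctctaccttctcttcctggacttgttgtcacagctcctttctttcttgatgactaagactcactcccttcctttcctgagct

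The match of Nlrp3 lay 186 to 177 bases before its start. Those of Casp4 lay at 2 places, 93 to 83 bases before the start, where 2 matches overlap, and 39 to 30 bases before it. A match is a run of letters and not a binding site. The PU.1 motif GAGGAAGT was found upstream of Aim2, Pycard and 1 of the 2 start sites of Nlrp1b. That is 3 of 11 windows, against 2.44% of all windows. The interferon-stimulated response element GAAANNGAA, the AP-1 motif TGANTCA and the GAS motif TTCNNNGAA were in none of the 11 windows. They were in 7.13%, 6.75% and 7.02% of all windows, and their absence says only that these letters are not in these windows.

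In untreated macrophages Casp1 was the most abundant of the 8 transcripts at 58.3 ± 0.226 RPKM (SD, n = 2). It was followed by Casp8 at 28.7 RPKM, Pycard at 24.8, Nlrp3 at 20.2 and Aim2 at 13.9 RPKM. Nlrp1b at 11.1 RPKM and Casp4 at 10.9 RPKM overlapped between libraries, and Nlrc4 was lowest at 5.33 RPKM. The order changed with dose. At 0.03 nM for 2 h Nlrp3 led at 99.6 RPKM, ahead of Casp1 at 76.6. After 10 nM for 1 h Nlrp3 stood at 609 RPKM, with Casp1 at 81.1 and Casp4 at 74.7 RPKM next. The order at 10 nM for 2 h was Nlrp3 at 388, Casp1 at 168, Casp4 at 152, Casp8 at 35.8, Aim2 at 32.3 and Pycard at 29.7 RPKM, and the 2 lowest, Nlrp1b at 5.21 and Nlrc4 at 4.91 RPKM, overlapped.

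**Figure D1:**
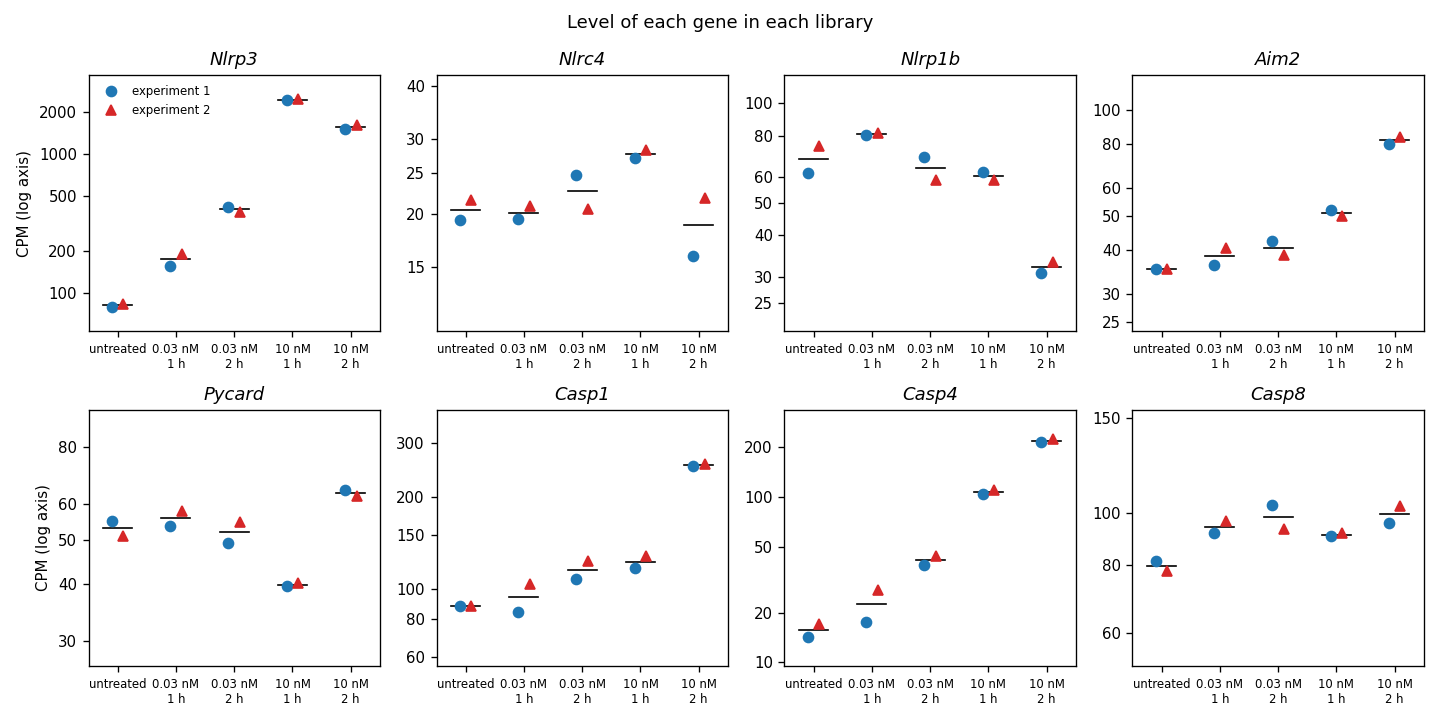
Level of each of the 8 genes in CPM (log axis, a different range in each panel) in every library, by group on the x axis. Circles are experiment 1, triangles experiment 2, and lines the mean of the 2 libraries. Nlrp3 runs from 79.2 CPM in untreated cells to 2461 CPM at 10 nM for 1 h, Casp4 climbs with dose and time, Nlrp1b is lowest at 10 nM for 2 h, and Casp8 stays between 78.1 and 104 CPM.

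Nlrp3 encodes the sensor that responds to membrane damage and loss of potassium (mm9 chr11:59356188-59380458, + strand). It was counted at 79.2 and 83.0 CPM in the 2 untreated libraries. At 0.03 nM it stood at 156 and 191 CPM after 1 h and at 417 and 384 CPM after 2 h. With 10 nM it stood at 2433 and 2461 CPM after 1 h and at 1506 and 1614 CPM after 2 h. No 2 groups overlapped. Nlrp3 was the only one of the 8 genes called at 0.03 nM for 1 h, with a rise of 1.10 ± 0.0962 (log2 ± SE, adjusted p = 7.1e-05), which is 2.14-fold. That is 1 of 8 genes higher and 0 lower, beside 1.42% of all genes called higher and 0.108% called lower in that comparison.

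The rise of Nlrp3 depended on dose and, differently at each dose, on time. At 0.03 nM it went on rising, by 2.30 ± 0.0993 against untreated cells after 2 h and by 1.20 ± 0.0957 from 1 h to 2 h (adjusted p = 3.32e-05). At 10 nM it was 4.91 ± 0.111 above untreated cells after 1 h, or 30.2-fold, and 4.27 ± 0.108 after 2 h, having fallen by 0.65 ± 0.0943 from 1 h to 2 h (adjusted p = 1.75e-04). The difference between these time courses was itself tested and was -1.85 ± 0.134 (adjusted p = 4.09e-06). On the log2 scale, the change at 0.03 nM was 22.4% of that at 10 nM after 1 h and 54.0% of it after 2 h. By log2 fold change Nlrp3 ranked 129th from the top of the 12918 genes at 10 nM for 1 h. It passed the test in all 9 comparisons and under all 17 alternative settings tried, although the authors' shrunken rlog values gave a smaller change of 3.29 at 10 nM for 1 h.

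Aim2 encodes a sensor of double-stranded DNA in the cytosol (mm9 chr1:175350735-175396167, + strand). Its 2 untreated libraries were both at 35.2 CPM, and the libraries at 0.03 nM lay between 36.3 and 42.5 CPM. After 10 nM it stood at 51.8 and 50.01 CPM at 1 h and at 79.9 and 83.9 CPM at 2 h. All treated libraries were above all untreated ones, but only the rises at 10 nM passed the test: 0.53 ± 0.0839 at 1 h (adjusted p = 3.31e-04) and 1.22 ± 0.0842 at 2 h (adjusted p = 1.38e-07). Aim2 went on rising between 1 h and 2 h at 10 nM, by 0.69 ± 0.0832 (adjusted p = 4.35e-05). This time course differed from that at 0.03 nM by 0.61 ± 0.118 (adjusted p = 0.00316). With libraries scaled by their totals, the rise at 1 h was 0.17 and did not pass.

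Nlrp1b encodes a sensor that in some mouse strains is activated by bacterial proteases such as anthrax lethal factor (mm9 chr11:70966604-71044235, - strand). It stood at 61.7 and 74.2 CPM in untreated cells, at 80.5 and 81.4 CPM at 0.03 nM for 1 h, and at 69.1 and 58.7 CPM at 0.03 nM for 2 h. After 10 nM it stood at 61.9 and 58.6 CPM after 1 h and at 30.7 and 33.3 CPM after 2 h. Of the 4 sensors it alone fell against untreated cells, at 10 nM for 2 h, by 1.09 ± 0.106 (log2, adjusted p = 2.99e-06), to 0.471 of the untreated level. By library totals, Nlrc4 also fell in that comparison (-0.68, adjusted p = 0.00102), and Nlrp1b already fell at 10 nM for 1 h (-0.54, adjusted p = 9.09e-04) where its main value was -0.17 and did not pass. From 1 h to 2 h at 10 nM it fell by 0.91 ± 0.106 (adjusted p = 3.21e-05). The changes at 0.03 nM were 0.25 ± 0.103 at 1 h and -0.09 ± 0.103 at 2 h, and neither passed. Reads of Nlrp1b may be shared with its close copies Nlrp1a and Nlrp1c-ps. Nlrp1c-ps fell at 10 nM for 2 h by 1.23 ± 0.409 (adjusted p = 0.0359), and Nlrp1a changed by -0.19 ± 0.146 and did not pass.

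Nlrc4 encodes the sensor that acts with NAIP proteins on flagellin and bacterial secretion systems (mm9 chr17:74825635-74858448, - strand). It spanned a narrower range than the other sensors, between 15.9 and 28.3 CPM over the 10 libraries. The 2 libraries at 10 nM for 1 h, 27.1 and 28.3 CPM, were above all others, and the untreated ones were at 19.3 and 21.5 CPM. The rise of 0.44 ± 0.140 passed (adjusted p = 0.0272), but not when any 1 of those 4 libraries was left out (0.37 to 0.52, adjusted p = 0.0553 to 0.173), nor when libraries were scaled by their totals (0.07). At 10 nM for 2 h the libraries stood at 15.9 and 21.8 CPM, on both sides of the untreated ones, and the change of -0.12 had a 95% interval of -0.43 to 0.19. From 1 h to 2 h at 10 nM Nlrc4 fell by 0.56 ± 0.142 (adjusted p = 0.00762), and without the library of experiment 1 at 10 nM for 2 h by 0.35 (adjusted p = 0.0825).

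Through these changes the makeup of the sensor transcripts shifted to Nlrp3. Of the summed RPKM of the 4 sensors, Nlrp3 took 40.5% and 39.5% in the untreated libraries, 54.5% and 57.8% at 0.03 nM for 1 h, and 75.1% and 76.0% at 0.03 nM for 2 h. With 10 nM it took 94.2% and 94.4% after 1 h and 90.2% and 90.1% after 2 h. Aim2 fell in share from 28.5% and 26.6% to 3.18% and 3.04% at 10 nM for 1 h although its own level rose. Against the adaptor, Nlrp3 went from 0.766 and 0.864 RPKM per RPKM of Pycard in untreated cells to 32.7 and 32.6 at 10 nM for 1 h, and to 12.4 and 13.7 at 2 h. These shares and ratios are descriptions of the libraries, and the scaling of libraries cancels in them.

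**Figure D2:**
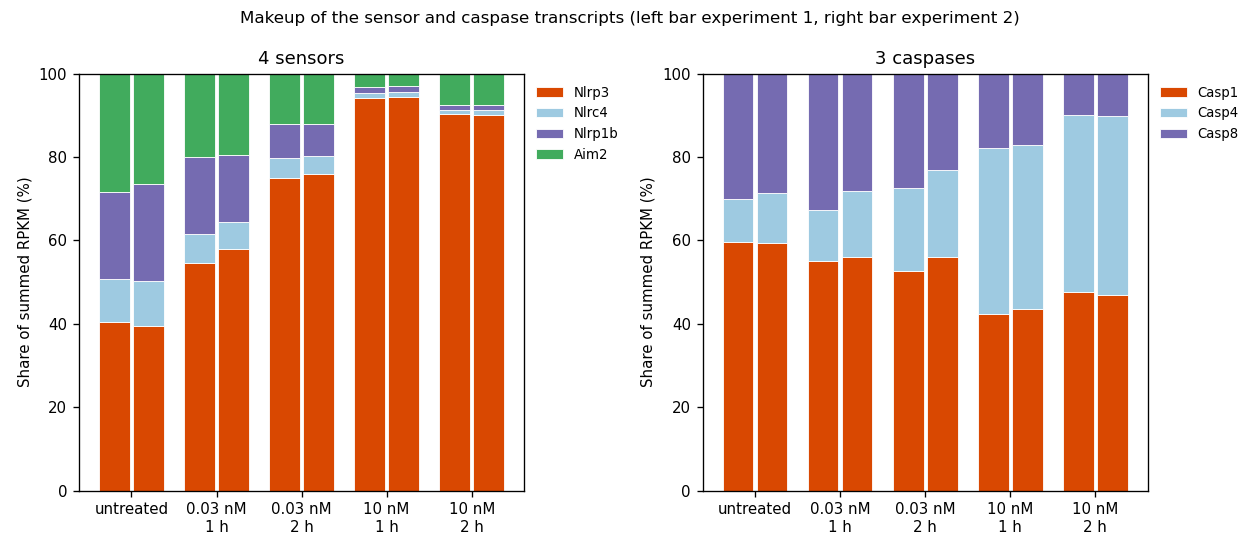
Share (%) of each gene in the summed RPKM of the 4 sensors (left) and of the 3 caspases (right), by group, with the library of experiment 1 as the left bar and that of experiment 2 as the right bar of each pair. Nlrp3 takes 39.5% to 40.5% of the sensor sum in untreated cells and 90.1% to 94.4% at 10 nM, while Casp4 goes from 10.2% to 12.1% of the caspase sum to between 39.4% and 43.0% at 10 nM.

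Pycard encodes ASC, the adaptor that joins NLRP3 and AIM2 to caspase-1 (mm9 chr7:135134887-135137381, - strand). It stood at 54.9 and 51.0 CPM in untreated cells and between 49.2 and 57.8 CPM in the 4 libraries at 0.03 nM. After 10 nM it was lowest after 1 h, at 39.6 and 40.1 CPM, and highest after 2 h, at 64.3 and 62.3 CPM. Pycard thus fell first, by 0.41 ± 0.0825 at 1 h (adjusted p = 0.00194), and from there rose by 0.67 ± 0.0829 to 2 h (adjusted p = 5.18e-05). The difference from the time course at 0.03 nM was 0.77 ± 0.116 (adjusted p = 6.55e-04). At 2 h it was above untreated cells by 0.26 ± 0.082 (adjusted p = 0.0174). That last call was lost without experiment 1 at 10 nM for 2 h (0.23, adjusted p = 0.0939) or without experiment 2 of the untreated cells (0.20, adjusted p = 0.143), and its sign turned, to -0.30, when libraries were scaled by their totals.

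Casp4 encodes the mouse protein usually called caspase-11, which binds lipid A in the cytosol and cleaves gasdermin D (mm9 chr9:5308860-5336791, + strand). It stood at 14.2 and 17.1 CPM in untreated cells. At 0.03 nM it stood at 17.6 and 27.5 CPM after 1 h and at 38.6 and 43.9 CPM after 2 h. The high dose gave 105 and 109 CPM after 1 h and 213 and 223 CPM after 2 h. After Nlrp3 it was the gene of the 8 that rose most, by 2.77 ± 0.185 at 10 nM for 1 h (adjusted p = 1.76e-06) and by 3.80 ± 0.192 at 10 nM for 2 h (adjusted p = 9.96e-08), which are 6.83-fold and 13.9-fold. Unlike Nlrp3 it did not fall back: from 1 h to 2 h at 10 nM it rose by 1.03 ± 0.170 (adjusted p = 9.27e-04).

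At 0.03 nM Casp4 rose 2.63-fold after 2 h (SE 0.181 on the log2 scale, adjusted p = 8.94e-04), 36.8% of the log2 change at 10 nM. Without experiment 2 at 0.03 nM for 2 h the log2 change was 1.31 (adjusted p = 0.0595). The 0.53 ± 0.181 after 1 h did not pass (adjusted p = 0.423), and without experiment 1 at 0.03 nM for 1 h it was 0.81 and passed (adjusted p = 0.00577). The 2 libraries of that group differed by 0.64 on the log2 scale for Casp4, the widest gap between experiments for any of the 8 genes. In that group all 30 interferon-stimulated genes of a fixed list were also higher in experiment 2, by a median 1.05. All 8 genes described here were too, by a median 0.14, beside 6184 of all 12918 genes (median -0.007). Most of the 30 were also higher in experiment 2 in the other groups, by smaller medians. The numbers were 29 in untreated cells (median 0.51) and 23 at 0.03 nM for 2 h (0.19). At 10 nM they were 28 after 1 h (0.25) and 30 after 2 h (0.32). Of the 8 genes, 6, 3, 6 and 7 were higher in these groups, in the same order. The part of this difference between experiments in the Casp4 values was not tested. The time courses of Casp4 at the 2 doses differed by 0.16 (95% interval -0.39 to 0.71).

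Casp1 encodes the caspase that matures IL-1β and IL-18 (mm9 chr9:5298517-5307281, + strand) and lies 1579 bases from Casp4 on the same strand. It stood at 88.0 and 88.5 CPM in untreated cells. At 0.03 nM it stood at 84.2 and 104 CPM after 1 h and at 108 and 124 CPM after 2 h. The high dose gave 118 and 128 CPM after 1 h and 252 and 257 CPM after 2 h. At 10 nM Casp1 rose by 0.48 ± 0.105 at 1 h (adjusted p = 0.00353) and by 1.53 ± 0.106 at 2 h (adjusted p = 1.45e-07), or 2.88-fold. Most of this came late: the rise from 1 h to 2 h was 1.05 ± 0.105 (adjusted p = 9.79e-06), and it exceeded that at 0.03 nM by 0.75 ± 0.147 (adjusted p = 0.00329). By library totals, the value at 10 nM for 1 h was 0.11 and did not pass.

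The rise of Casp1 at 0.03 nM for 2 h, 0.39 ± 0.104 (adjusted p = 0.0341), was small and was lost in 9 of 17 alternative settings. It did not pass without either untreated library (0.39 and 0.40, adjusted p = 0.189 and 0.178), without experiment 2 of its own group (0.30, adjusted p = 0.144), or without any 1 of the 4 libraries at 10 nM (0.39 in each, adjusted p = 0.0590 to 0.0614). The exons of Casp1 and Casp4 overlap neither each other nor another gene, and the same holds for the other 6 genes. Per length, Casp4 stood at 0.171 and 0.204 of the RPKM of Casp1 in untreated cells and at 0.940 and 0.903 of it at 10 nM for 1 h. After 2 h at 10 nM the ratio was 0.893 and 0.918.

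Casp8 encodes the initiator caspase of death receptor signalling, which also restrains necroptosis and can cleave inflammasome substrates (mm9 chr1:58852218-58904347, + strand). It stood at 81.6 and 78.1 CPM in untreated cells, at 91.7 and 96.6 CPM at 0.03 nM for 1 h and at 104 and 93.4 CPM at 0.03 nM for 2 h. At 10 nM it stood at 90.6 and 91.8 CPM after 1 h and at 95.9 and 103 CPM after 2 h. All 8 treated libraries were above both untreated ones, by little. The rises of 0.30 ± 0.0791 at 0.03 nM for 2 h (adjusted p = 0.0317) and 0.32 ± 0.0793 at 10 nM for 2 h (adjusted p = 0.00448) passed, and 10 nM differed from 0.03 nM at 2 h by 0.01 (95% interval -0.16 to 0.19).

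Those calls of Casp8 were weak. The one at 0.03 nM for 2 h was lost without either untreated library (0.33 and 0.27, adjusted p = 0.124 and 0.242) and without either library at 10 nM for 1 h (0.30 in each, adjusted p = 0.0636 and 0.0637). The one at 10 nM for 2 h turned to -0.24 when libraries were scaled by their totals. At 10 nM for 1 h the change was 0.19 ± 0.0791 (adjusted p = 0.0801), and without either library at 0.03 nM for 2 h it passed (0.19 in each, adjusted p = 0.0179 and 0.0204). Of the summed RPKM of the 3 caspases, Casp8 went from 30.1% and 28.5% in untreated cells to 9.88% and 10.2% at 10 nM for 2 h, while Casp4 went from 10.2% and 12.1% to 42.5% and 43.0%.

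**Figure D3:**
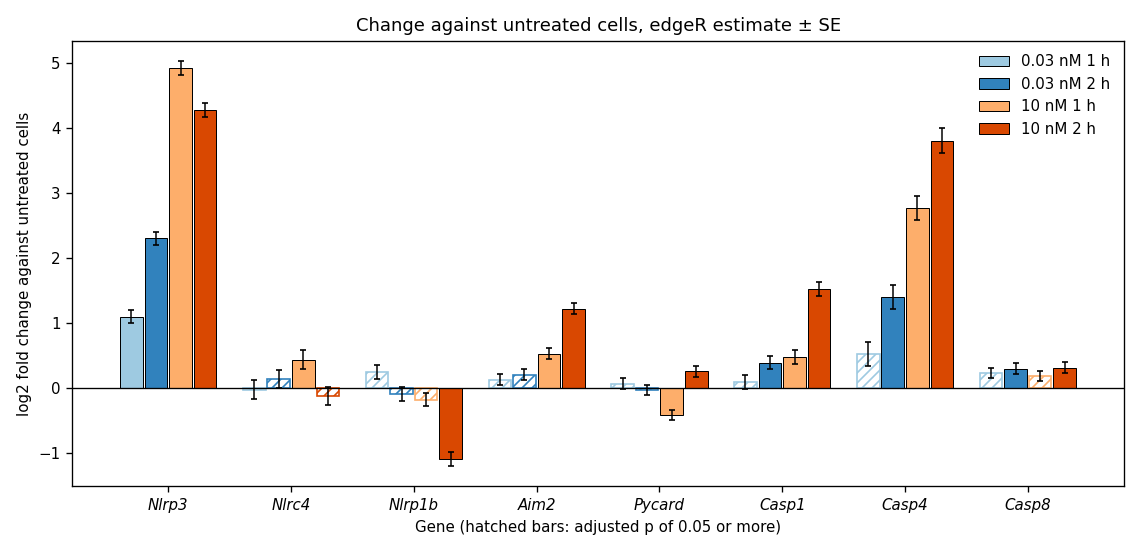
Log2 fold change of each gene against untreated cells, for the 4 treated groups, with bars for the edgeR estimate and error bars for its SE (2 libraries a group). Filled bars passed an adjusted p of 0.05 and hatched bars did not. Nlrp3 reaches 4.91 and Casp4 3.80, Nlrp1b alone falls by more than 1, and Pycard is below 0 at 10 nM for 1 h and above 0 at 2 h, the latter turning to -0.30 when libraries are scaled by their totals.

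Counted over the 8 genes, the response widened with dose and time. At 0.03 nM for 2 h, 4 of 8 genes were higher (Nlrp3, Casp4, Casp1 and Casp8) and 0 lower, beside 6.45% and 3.37% of all genes. At 10 nM for 1 h, 5 were higher (Nlrp3, Casp4, Aim2, Casp1 and Nlrc4) and 1 lower (Pycard), beside 18.5% and 18.3% of all genes. At 10 nM for 2 h, 6 were higher (Nlrp3, Casp4, Casp1, Aim2, Casp8 and Pycard) and 1 lower (Nlrp1b), beside 28.6% and 30.1%. With 58.7% of all genes called in that last comparison, a call by itself says little there, and the sizes differ more: the median log2 change of the 8 genes was 0.77, and that of all genes -0.03. Scaled by library totals, where the median of all genes at 10 nM lay at -0.38 after 1 h and -0.59 after 2 h, 15.9% and 19.4% of the called genes were higher, against 50.3% and 48.8% as given above. Of the 8 genes, 2 were then called higher and 2 lower at 1 h, beside 8035 of all 12918 genes called in either direction. At 2 h 4 were then higher and 4 lower, beside 9801 of all genes called. The same 2 numbers of all genes stand beside the counts by library totals at 10 nM in the lists below.

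Compared at the same time, 10 nM gave higher levels than 0.03 nM for 5 of 8 genes at 1 h (Nlrp3, Casp4, Nlrc4, Aim2 and Casp1) and lower ones for 2 (Pycard and Nlrp1b), beside 18% and 17.3% of all genes. At 2 h it gave higher levels for 5 (Casp4, Nlrp3, Casp1, Aim2 and Pycard) and a lower one for Nlrp1b, beside 25.6% and 27.2%. These counts moved with the scaling. By library totals, 2 were higher (Nlrp3 and Casp4) and 3 lower (Pycard, Nlrp1b and Casp8) at 1 h, where Nlrc4 (0.10), Aim2 (0.05) and Casp1 (0.02) did not pass (adjusted p = 0.542, 0.640 and 0.858). At 2 h 4 were then higher (Nlrp3, Casp4, Casp1 and Aim2) and 4 lower (Nlrp1b, Nlrc4, Casp8 and Pycard). Of all 12918 genes, 7789 were called by library totals at 1 h and 9363 at 2 h, and 15.5% and 18.4% of these were higher. Casp4 differed most between the doses at 2 h, by 2.40 ± 0.178 (adjusted p = 2.44e-06), and Nlrp3 at 1 h, by 3.82 ± 0.105 (adjusted p = 3.47e-10). Nlrp1b was lower at 10 nM by 0.43 ± 0.103 at 1 h (adjusted p = 0.0067) and by 1.00 ± 0.106 at 2 h (adjusted p = 8.5e-06). The first of these did not pass without experiment 2 at 10 nM for 1 h (-0.39, adjusted p = 0.0685). Casp1 at 1 h (0.38 ± 0.104) did not pass without that library (0.32, adjusted p = 0.113) or without experiment 1 at 0.03 nM for 1 h (0.24, adjusted p = 0.147). Nlrc4 at 1 h (0.46 ± 0.140) did not pass without any 1 of the 4 libraries compared (0.41 to 0.51, adjusted p = 0.0584 to 0.126). At 2 h Pycard (0.29 ± 0.0821) did not pass without experiment 1 at 10 nM (0.26, adjusted p = 0.0686), and Nlrc4 (-0.26 ± 0.143) passed without experiment 2 at 0.03 nM (-0.43, adjusted p = 0.0363) or at 10 nM (-0.51, adjusted p = 0.0159).

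From 1 h to 2 h, 2 of 8 genes rose at 0.03 nM (Nlrp3 and Casp4) and 0 fell, beside 3.51% and 1.59% of all genes. The rise of Casp4, 0.87 ± 0.177 (adjusted p = 0.0217), was lost without experiment 1 at 0.03 nM for 2 h (0.96, adjusted p = 0.0664) and without experiment 2 of that group (0.78, adjusted p = 0.28). Without experiment 1 of that group Nlrp1b fell (-0.46, adjusted p = 0.00599), and Casp1 rose without it (0.39, adjusted p = 0.0223) or without experiment 2 at 0.03 nM for 1 h (0.46, adjusted p = 0.0448). At 10 nM, 4 rose (Casp1, Casp4, Aim2 and Pycard) and 3 fell (Nlrp1b, Nlrp3 and Nlrc4), beside 21.3% and 21.5%. The time course differed between the doses for 6 of the 8 genes. It was more positive at 10 nM for 3 (Pycard, Casp1 and Aim2) and more negative for 3 (Nlrp3, Nlrc4 and Nlrp1b), beside 10.4% and 11.6% of all genes. The difference for Nlrc4, -0.72 ± 0.1998 (adjusted p = 0.0224), did not pass without any 1 of 4 libraries, the one of experiment 1 at 0.03 nM for 1 h, both at 10 nM for 1 h and the one of experiment 1 at 10 nM for 2 h (-0.76 to -0.52, adjusted p = 0.0597 to 0.0788). That for Nlrp1b, -0.57 ± 0.148 (adjusted p = 0.0162), did not pass without experiment 1 at 10 nM for 1 h or for 2 h (-0.53 and -0.52, adjusted p = 0.0733 and 0.0702).

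Other genes followed the 8 closely over the 10 libraries. These correlations are descriptions over 10 points that share 5 group means, among 10303 genes of sufficient level. The pattern most like Nlrp3 was that of Zswim4 (Pearson r = 0.998), and then came Zfand5 and Rffl. Zswim4 rose by 3.82 at 10 nM for 1 h and 3.51 at 2 h, so it too was higher at 1 h. Casp4 was followed most closely by Gch1 (r = 0.998), the first enzyme of tetrahydrobiopterin synthesis, and by Fpr2 and Lcp2. Among the genes that followed Casp1 closely were Psme2 (r = 0.997), a subunit of the proteasome activator, and Pnp. Aim2 was followed by Car13 (r = 0.997), Tnfsf15 and Gca. Nlrp1b was followed by Wipf1 (r = 0.985), Rasa3 and Zcchc24, and Pycard by Rhoh (r = 0.974), AI837181 and Mocs2. The nearest patterns to Nlrc4 (Polr1a, Jmjd1c and Mta3) and Casp8 (Csf2rb, Cyth1 and Csf2rb2) reached only 0.937 and 0.922. Among the 8 genes themselves, Casp1 and Aim2 were most alike (r = 0.967), and Casp1 and Nlrp1b most opposed (r = -0.952).

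Of the other sensors and NOD-like receptors, 20 of 24 listed genes were tested, and calls went in both directions, as over all genes. Against untreated cells 0 of 20 were called at 0.03 nM for 1 h and 4 were higher at 0.03 nM for 2 h. At 10 nM, 6 were higher and 2 lower after 1 h, and 10 higher and 6 lower after 2 h. Over all genes, 1.42% were higher and 0.108% lower at 0.03 nM for 1 h, and 6.45% and 3.37% at 0.03 nM for 2 h. At 10 nM these shares were 18.5% and 18.3% after 1 h, and 28.6% and 30.1% after 2 h. The same shares apply to each list below. In this list the share lower at 10 nM for 2 h was near that of all genes. The median log2 change at 2 h was 0.53, but -0.03 by library totals and 0.30 without experiment 2 of that group. Nod2, a sensor of bacterial muramyl dipeptide, stood at 4.17 and 5.55 CPM in untreated cells and at 163 and 173 CPM at 10 nM for 2 h, a rise of 5.11 ± 0.287 (adjusted p = 1.45e-06). Mefv, which encodes the sensor pyrin, rose by 3.76 ± 0.226 (adjusted p = 8.82e-07) and Nod1 by 1.81 ± 0.121 (adjusted p = 1.09e-07) in the same comparison. Ifi205, of the same family as Aim2 and with near copies that may share its reads, rose by 6.76 (adjusted p = 1.58e-05). Nlrp10 fell by 1.91 and Nlrx1 by 1.34 (adjusted p = 2.7e-05 and 1.15e-05). Naip2, a partner of Nlrc4, was not called in any comparison with untreated cells and lay between 56.4 and 68.5 CPM, and neither was Naip6. With scaling by library totals, 6 were higher and 6 lower at 10 nM for 1 h, and 9 higher and 10 lower at 2 h, Naip2 and Naip6 among the lower at 2 h. The 2 lower at 10 nM for 1 h went to 0 without experiment 1 of that group and to 1 without its experiment 2 or either untreated library. Without experiment 1 at 0.03 nM for 1 h, 3 were higher in that comparison. With 1 library left out, 2 to 4 were higher and 0 to 3 lower at 0.03 nM for 2 h, fewest higher without experiment 1 of the untreated cells or experiment 2 of that group, most lower without experiment 1 of that group.

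Of the other caspases, 6 of 7 were tested. At 0.03 nM for 1 h 0 were called, and 2 fell and 0 rose both at 0.03 nM for 2 h and at 10 nM for 1 h. At 10 nM for 2 h 4 fell and 2 rose, beside 30.1% and 28.6% of all genes. The 2 falls at 0.03 nM for 2 h went to 0 without either untreated library and to 4 without experiment 1 of that group, with the experiment number as a replicate block or by library totals. They went to 1 without experiment 2 of that group or either library at 10 nM for 1 h. By library totals 4 also fell at 10 nM for 1 h. Casp9, the initiator of the mitochondrial pathway, stood at 50.6 and 50.5 CPM in untreated cells and at 10.9 and 12.5 CPM at 10 nM for 2 h, a change of -2.11 ± 0.0977 on the log2 scale (adjusted p = 4.3e-09). Casp2 fell by 1.97 ± 0.154 (adjusted p = 5.04e-07), and the effector caspase Casp6 fell by 0.38 (adjusted p = 0.00643). Casp12, a relative of the inflammatory caspases, rose by 2.98 ± 0.511 (adjusted p = 3.15e-04) but reached only 1.97 and 3.18 CPM.

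Of the genes that assemble or license the platform, 21 of 23 listed genes were tested, and calls again went in both directions, as over all genes. At 0.03 nM 0 were called after 1 h, and 5 were higher and 3 lower after 2 h. At 10 nM, 9 were higher and 2 lower after 1 h, beside 18.5% and 18.3% of all genes. After 2 h 10 were higher and 6 lower, beside 28.6% and 30.1%, so the share lower was near that of all genes. Txnip, which encodes a thioredoxin-binding protein reported to bind NLRP3, stood at 789 and 786 CPM in untreated cells. At 10 nM for 1 h it fell by 4.11 ± 0.131, to 39.0 and 52.4 CPM (adjusted p = 3.71e-10), and stood at 132 and 139 CPM at 2 h. From 1 h to 2 h at 10 nM Txnip thus rose, by 1.57 ± 0.120 (adjusted p = 1.29e-06), where Nlrp3 fell. P2rx7, which encodes the ATP-gated channel whose opening triggers NLRP3, fell by 1.64 ± 0.101 at 10 nM for 2 h (adjusted p = 5.23e-08). The guanylate-binding protein gene Gbp5 rose by 7.10 ± 0.244 (adjusted p = 1.59e-08), from 11.1 and 11.8 to 1534 and 1611 CPM, and Gbp2 by 3.65 (adjusted p = 3.13e-08). Myd88, the adaptor of TLR4, rose by 1.88 and the kinase gene Syk by 1.55 (adjusted p = 1.54e-08 and 2.04e-09). Nek7, an NLRP3-binding kinase, and Gsk3b were not called in any comparison with untreated cells. Scaled by library totals, 7 were higher and 8 lower at 10 nM for 1 h, with a median log2 change of -0.14 in place of 0.23. At 2 h 8 were then higher and 11 lower, Nek7 and Gsk3b among the lower, with a median of -0.39 in place of 0.16. Without either library at 0.03 nM for 2 h, 4 were lower at 10 nM for 1 h. At 0.03 nM for 2 h leaving out either untreated library, or experiment 2 of that group, left 2 higher. There 5 were lower without experiment 1 of that group and 1 without experiment 2 of the untreated cells, and at 0.03 nM for 1 h 3 were higher without experiment 1 of that group.

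Of the substrates and pore formers, 11 of 12 were tested, and more rose than fell. At 0.03 nM 2 were higher after 1 h and 3 after 2 h, with 0 lower. With the experiment number as a replicate block 7 were higher at 0.03 nM for 2 h, and 5 by DESeq2 or without experiment 1 of that group. At 10 nM 8 were higher and 0 lower after 1 h, beside 18.5% and 18.3% of all genes. After 2 h 9 were higher and 1 lower, beside 28.6% and 30.1%. Il1b, which encodes the precursor of IL-1β, stood at 7.50 and 10.1 CPM in untreated cells, at 71.1 and 142 CPM at 0.03 nM for 1 h and at 125 and 138 CPM at 0.03 nM for 2 h. At 10 nM it stood at 5176 and 5422 CPM after 1 h and at 2861 and 3422 CPM after 2 h. Like Nlrp3 it was higher at 1 h than at 2 h in both experiments, but the difference, -0.75 ± 0.303, did not pass (adjusted p = 0.0907). Il18, the other cytokine that caspase-1 matures, rose by 1.05 at 1 h and by 2.02 ± 0.154 at 2 h (adjusted p = 3.21e-07), and stayed at or below 17.1 CPM. Il1a went from 5 and 20 counts in the untreated libraries to 20652 and 24454 counts at 10 nM for 1 h (adjusted p = 1.55e-06). Il1rn, the antagonist of the IL-1 receptor, rose by 5.91 at 2 h (adjusted p = 2.66e-07).

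Gsdmd, which encodes the pore former gasdermin D, rose mostly between 1 h and 2 h at 10 nM, by 0.77 ± 0.106 (adjusted p = 1.13e-04). It stood at 107 and 108 CPM in untreated cells, at 131 and 140 CPM at 10 nM for 1 h and at 224 and 238 CPM at 10 nM for 2 h. The rises were 0.33 ± 0.106 at 1 h (adjusted p = 0.0289) and 1.10 ± 0.107 at 2 h (adjusted p = 2.75e-06). Mlkl, the pore former of necroptosis, rose by 0.34 and 1.45 (adjusted p = 0.0498 and 8.64e-07) in the same comparisons. Scaled by library totals, the values at 1 h were -0.04 for Gsdmd and -0.03 for Mlkl and did not pass, and 6 of the 11 genes were higher and 2 lower at 1 h. At 0.03 nM for 1 h the 2 calls, Il1b and Il1a, were both lost without experiment 1 of the untreated cells or without either library at 0.03 nM for 2 h, and 1 of them without either library at 10 nM for 1 h. Il33 had no count in the untreated libraries and was at least 18.4-fold and 82.5-fold higher at 10 nM for 1 h and 2 h, against a floor of 3 counts over the untreated group, and its counts were 19 and 29, and 85 and 92. Hmgb1 was not called in any comparison with untreated cells.

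Partners and inhibitors of caspase-8, 15 of 15 tested, included genes that changed more than Casp8 itself. At 0.03 nM 3 were higher and 0 lower after 1 h, and 6 higher and 1 lower after 2 h. At 10 nM 9 were higher and 3 lower after 1 h, beside 18.5% and 18.3% of all genes. After 2 h 10 were higher and 3 lower, beside 28.6% and 30.1%. Cflar, which encodes the caspase-8 inhibitor cFLIP, stood at 113 and 123 CPM in untreated cells and at 2130 and 2369 CPM at 10 nM for 2 h, a rise of 4.25 ± 0.152 (adjusted p = 1.38e-09). The ubiquitin-editing enzyme gene Tnfaip3 rose by 6.79 ± 0.156 at 10 nM for 1 h (adjusted p = 6.9e-11), the inhibitor of apoptosis gene Birc3 by 3.11 (adjusted p = 1.18e-09) and the death receptor gene Fas by 2.76 (adjusted p = 3.92e-09). Birc2, a second inhibitor of apoptosis, rose by 1.79 and the signalling adaptor gene Traf2 by 0.80 (adjusted p = 2.99e-09 and 1.48e-05). Fadd, the adaptor that recruits caspase-8, fell by 0.76 ± 0.122 at 10 nM for 2 h (adjusted p = 1.86e-04), and Bid, a caspase-8 substrate, fell by 0.84 (adjusted p = 1.41e-05). Ripk3 was not called in any comparison with untreated cells. The 1 gene lower at 0.03 nM for 2 h was Ripk1 (-0.30, adjusted p = 0.0431), a call lost with any 1 of 9 of the 10 libraries left out. Scaled by library totals, 8 of the 15 were higher and 5 lower at 10 nM for 2 h.

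**Figure D4:**
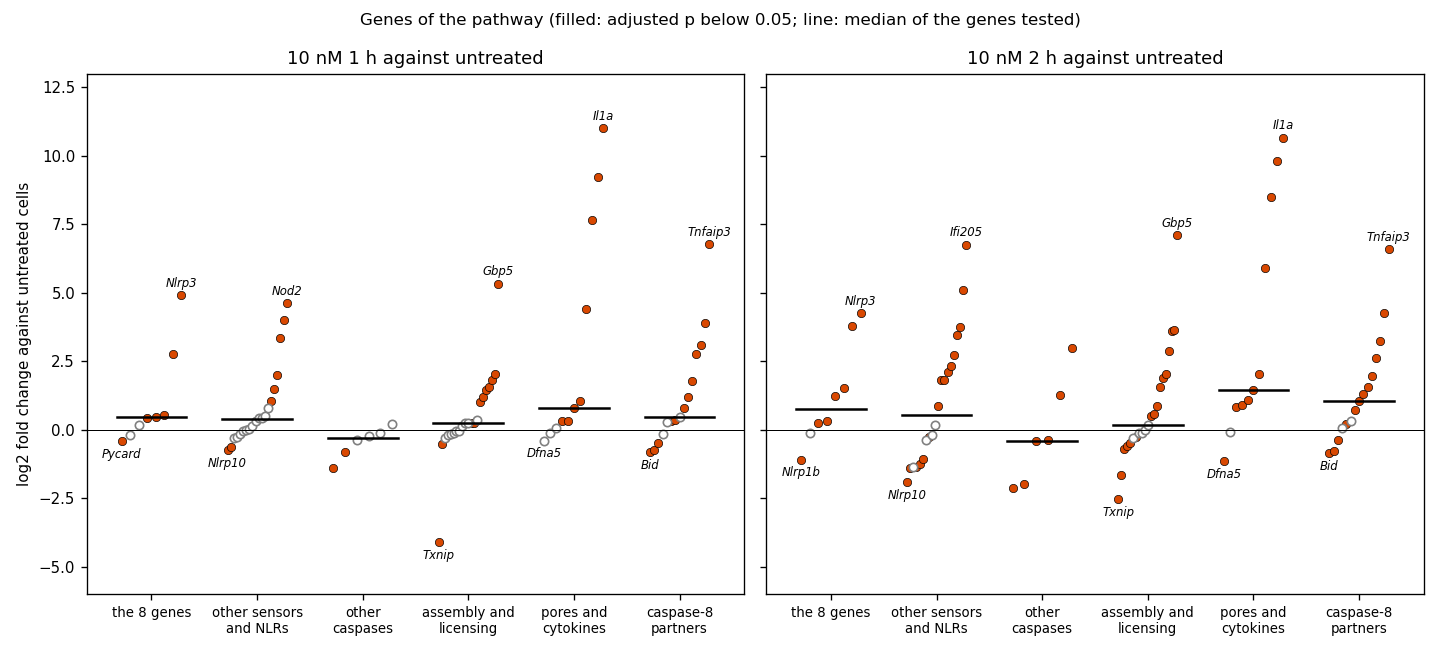
Log2 fold change against untreated cells at 10 nM for 1 h (left) and 2 h (right), for the 8 genes and the tested genes of the 5 pathway lists, each point a gene in order of its change and lines the medians. Filled points passed an adjusted p of 0.05, and the lowest and highest gene is named in every column but that of the other caspases. Nlrp3 is the highest of the 8 in both panels, and the other caspases have medians of -0.31 and -0.40.

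As background, TLR4 ligands also lead macrophages to make type I interferon, which raises a set of interferon-stimulated genes. Of 30 such genes, 10 were higher at 10 nM for 1 h and 28 at 10 nM for 2 h, with 0 lower in either. Beside these, 18.5% and 28.6% of all genes were higher and 18.3% and 30.1% lower. At 0.03 nM 0 were called after 1 h and 1 was higher after 2 h. Their median log2 change went from 0.50 to 1.98 between 1 h and 2 h at 10 nM. With the experiment number as a replicate block 8 were higher at 0.03 nM for 2 h, and 17 were higher and 1 lower at 10 nM for 1 h. Without either library at 0.03 nM for 1 h, 5 were higher at 0.03 nM for 2 h. Without experiment 1 of the untreated cells 5 were higher at 10 nM for 1 h, and scaled by library totals 8 were higher and 2 lower there and 21 higher and 0 lower at 2 h. From 1 h to 2 h at 10 nM Casp1, Casp4, Aim2 and Pycard rose, Nlrp3, Nlrc4 and Nlrp1b fell, and Casp8 was not called. Whether these changes depend on interferon was not tested.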

How the data were processed

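Per the labels, 10 libraries of polyadenylated RNA were sequenced, with 2 libraries a group. The authors deposited raw read counts per gene model in the column layout of featureCounts, per the file headers, and a second table of regularised log2 (rlog) values, which the authors made from the same genes and which shrink large changes. The submitters' processing notes name TopHat2 2.0.11, featureCounts 1.4.5-p1, DESeq2 and mm9. The library kit keeps strand, per the labels' protocols, but whether counting used it is not given in the sources used here. Positions and exon lengths are those in the deposited count table, and promoter sequences come from RefSeq.

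The count model was built in edgeR 4.0.16 (R 4.3.3): filterByExpr, TMM scaling, and 1 robust quasi-likelihood model with a mean per group over all 10 libraries (5 residual degrees of freedom). It was also run on simulated data. The 9 comparisons set each treated group against untreated cells, the high against the low dose at both times, the later against the earlier time at both doses, and the doses' time courses against each other (called the interaction). Adjusted p-values run over all 12918 genes. log2 CPM for correlations used a prior count of 1. All 8 genes are given in every library. From each pathway list, the text draws on up to 6 called genes with the smallest p and up to 2 uncalled ones of the highest mean count, and Nlrp1a, Nlrp1c-ps, Il33, Fadd, Bid and Ripk1 were named outside that rule after their values were seen. A few genes that the rule would name are not reported here. The genes and lists were chosen with earlier results of these data known. Alternatives were other scalings, DESeq2 1.42.0, no low-count filter, the rlog values with limma 3.58.1, the groups compared alone, a replicate block and each library left out. Libraries with the same experiment number, which the labels give, deviated from their group means together at correlations of 0.0440 to 0.209 (median 0.158, above 0.1 in 7 of 10 pairs of groups).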

Additional observations from a re-analysis of the deposited data

Results flagged for a closer look

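For 6 of 8 genes, beside 22% of all genes, the change from 1 h to 2 h differed between 10 nM and 0.03 nM. This difference was tested by edgeR's quasi-likelihood test, Benjamini-Hochberg adjusted over all genes. It was -1.85 for Nlrp3 (adjusted p = 4.09e-06), -0.72 for Nlrc4 (adjusted p = 0.0224) and -0.57 for Nlrp1b (adjusted p = 0.0162). It was 0.61 for Aim2 (adjusted p = 0.00316), 0.77 for Pycard (adjusted p = 6.55e-04) and 0.75 for Casp1 (adjusted p = 0.00329). All values are log2 differences, with 10 nM minus 0.03 nM. Nlrp3 is the gene of these that went in opposite directions with both steps past the test, up by 1.20 at 0.03 nM and down by 0.65 at 10 nM. The values for Nlrc4 and Nlrp1b did not pass in every fit that left out a library.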

How the results depend on the processing

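Of the 72 values (8 genes in 9 comparisons), 46 passed the test, 29 of them also under all 17 alternatives, and 17 of the 26 that did not pass never did. Under scaling by library totals alone, 3 called values turned sign, Pycard at 10 nM for 2 h against untreated cells (-0.30) and against 0.03 nM (-0.20) and Casp8 against untreated cells (-0.24), and Casp8 against 0.03 nM at 2 h, which was not called (0.01), became lower (-0.47). The TMM factors were 1.09 to 1.15 in untreated cells and at 0.03 nM and 0.775 to 0.897 at 10 nM, and by library totals the median of all genes lay at -0.37 and -0.52 for 10 nM against 0.03 nM at 1 h and 2 h, -0.19 for 2 h against 1 h at 10 nM and -0.15 for the interaction. In these 4 comparisons 15.5%, 18.4%, 29.2% and 30.9% of called genes were then higher, against 50.9%, 48.5%, 49.7% and 47.4%. At 0.03 nM the shares went from 65.7% to 48.4% (2 h against untreated) and from 68.8% to 54.1% (2 h against 1 h).

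Of the 8 genes, 2 were called at 0.03 nM for 2 h by library totals and 2 with the compared groups alone, against 4, and 1 from 1 h to 2 h at 0.03 nM with the compared groups alone, against 2. Over all genes, 1414, 655 and 198 were called in these fits, in the same order, against 1268 at 0.03 nM for 2 h and 660 from 1 h to 2 h. Leaving out each library in turn gave 1 to 2 called at 0.03 nM for 1 h, 2 to 4 at 0.03 nM for 2 h, 5 to 7 at 10 nM for 1 h and 6 to 7 at 10 nM for 2 h. It gave 4 to 7 and 5 to 7 for 10 nM against 0.03 nM at 1 h and 2 h, 1 to 3 and 6 to 7 from 1 h to 2 h at 0.03 nM and 10 nM, and 4 to 6 for the interaction. By library totals, with no library left out, 8035 of all genes were called at 10 nM for 1 h in place of 4761. Among the fits with a library left out, the largest moves over all genes came without experiment 1 at 0.03 nM for 2 h. More genes were then called than the 1268 in that group and the 660 from 1 h to 2 h at 0.03 nM. Without experiment 1 of the untreated cells 78 genes were called at 0.03 nM for 1 h in place of 198, and without experiment 1 at 10 nM for 1 h 1897 in place of 2846 for the interaction. The numbers over all genes thus moved with the same omissions, so the ranges by themselves do not set the 8 genes apart from other genes. The cause of these moves was not tested.

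With the experiment number as a replicate block, the same numbers of the 8 genes were called in all 9 comparisons, 1, 4, 6 and 7 against untreated cells, 7 and 6 between doses, 2 and 7 between times and 6 for the interaction, and no call of the 8 genes changed. Counts in the pathway lists did move with the block, as given with each list, and the other sensors went from 6 to 9 higher at 10 nM for 1 h. With 2 libraries a group, small changes such as those of Casp8 and Nlrc4 are near what the spread allows to be called.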
